A study of Mus musculus with 16 samples.

Results

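The elastic fibre genes were followed through the induction of tenocytes in culture and in Achilles tendon lacking the tendon transcription factor *Scx*. The 10 protein-coding genes were taken by name for their known place in elastic fibres: *Eln*, *Fbn1*, *Fbn2*, *Mfap2*, *Mfap4*, *Mfap5*, *Fbln5*, *Emilin1*, *Efemp2* and *Ltbp2*. All 10 were present among the 29629 genes of the single-cell table and among the 47729 genes of the bulk table. The single cells came from *ScxGFP* iPSCs, induced pluripotent stem cells made from embryonic fibroblasts of mice that carry a GFP transgene under *Scx* control, so every time point carries that transgene. T0 denotes untreated mesodermal cells induced from these iPSCs, and T3, T6 and T9 denote cells kept for a further 3, 6 or 9 days with 10 ng/ml recombinant human TGF-β2. Cells were sorted into 384-well plates, with 3 plates per time point, and read by CEL-Seq2, a method that tags the 3' end of mRNAs with unique molecular identifiers (UMIs), so that molecules rather than copies are counted. No untreated culture was sampled at T3, T6 or T9, so the action of TGF-β2 and the time in culture cannot be told apart. The tissue samples were Achilles tendons of mice at 2 weeks of age, 2 from wild-type littermates (Scx_Wt) and 2 from homozygous *Scx* knockout mice (Scx_KO). Neither the number of mice behind each tendon sample nor a separate culture behind each plate is stated, so all p-values measure the spread between these samples, which may be technical.

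Elastic fibres let a tissue recoil after stretch. Their core is cross-linked elastin, which is laid down on a scaffold of fibrillin microfibrils and is guided there by fibulins and related assembly proteins before lysyl oxidases cross-link it. Tendon is built mainly of type I collagen, with elastic fibres as a minor component that is found around and between the collagen fascicles. TGF-β is stored in latent form on fibrillin microfibrils, and *Scx* encodes a basic helix-loop-helix transcription factor, a class of proteins that bind the E-box motif CANNTG.

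Because the tissue comparison removes an E-box-binding factor, promoter sequence is shown for 3 members whose windows differ in their E-boxes. Each window is the RefSeq sequence (GRCm38.p6) from 250 bases before to 50 bases after an annotated gene start, written 5′ to 3′ on the strand of the gene, with matches to CANNTG in capitals. The windows are *Fbn1* at chr2:125506389-125506688, *Fbln5* at chr12:101819070-101819369 and *Ltbp2* at chr12:84876442-84876741, all on the minus strand.
Fbn1: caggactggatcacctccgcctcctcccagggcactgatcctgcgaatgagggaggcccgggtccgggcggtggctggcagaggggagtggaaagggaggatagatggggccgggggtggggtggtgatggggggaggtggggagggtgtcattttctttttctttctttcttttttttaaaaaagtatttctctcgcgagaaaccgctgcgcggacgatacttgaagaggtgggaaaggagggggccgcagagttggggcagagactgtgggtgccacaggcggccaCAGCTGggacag
Fbln5: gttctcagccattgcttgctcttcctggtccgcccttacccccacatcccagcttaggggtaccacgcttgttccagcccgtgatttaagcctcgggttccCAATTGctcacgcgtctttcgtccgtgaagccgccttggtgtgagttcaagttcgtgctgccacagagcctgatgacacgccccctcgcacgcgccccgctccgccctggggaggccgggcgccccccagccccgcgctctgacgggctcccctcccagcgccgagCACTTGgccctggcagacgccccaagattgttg
Ltbp2: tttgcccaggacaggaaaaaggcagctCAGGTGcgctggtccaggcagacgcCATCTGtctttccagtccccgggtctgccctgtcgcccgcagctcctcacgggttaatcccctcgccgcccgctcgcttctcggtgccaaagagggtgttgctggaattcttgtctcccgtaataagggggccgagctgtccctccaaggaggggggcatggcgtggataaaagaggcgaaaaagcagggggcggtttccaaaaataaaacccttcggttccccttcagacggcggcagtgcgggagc
The *Fbn1* window held 1 E-box, CAGCTG, close to its downstream end, whereas the *Fbln5* window held CAATTG and CACTTG, and the *Ltbp2* window held CAGGTG and CATCTG. Of the 10 members, 6 had an entry in the promoter table, with 10 windows between them, of which 5 held at least 1 E-box. A second *Fbln5* window, at chr12:101818435-101818734, held none, and neither did any *Efemp2* window. Some *Efemp2* windows overlap, so the windows are not independent of one another. Among all 32851 promoter windows of the same length, 72.3% held one. The letters CAGAC, read on either strand (GTCTG on the other), the core of the Smad-binding element, were found in 6 of the 10 windows and in 49.6% of all windows. These matches describe the sequence and identify no bound site. No window was given for *Eln*, *Fbn2*, *Mfap4* and *Mfap5*.

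The 12 plates held 1921125 to 4657093 UMIs each after 4594 of 4608 wells with at least 200 detected genes had been kept, and the 4 tendon samples held 11188270 to 12398560 counted reads. The plates fell on either side of a split by the reads that matched no annotated feature, as the study's library statistics give them. Plates with more such reads numbered 7 and included every T0 plate together with T3 plate 2, T6 plates 1 and 3, and T9 plate 3. The other 5 plates had fewer such reads. The labels do not say whether the split is technical or lies between cultures, and this was not tested. Plates of a time point that lay on the same side differed by a chi-square of 3.18 to 8.45 per gene, whereas plates of a time point on opposite sides differed by 19.98 to 57.6. Since all T0 plates lay on the side with more such reads, comparisons whose values moved with the split are also given with its sides as a covariate and, in some cases, within a side, the latter added after the data had been seen. On the side with more such reads T3 and T9 each hold 1 plate, and on the other side T6 holds 1 plate, so within a side the lone plate is assumed to vary like the others and no spread of its own stands behind it. Tenocyte markers rose over the course, as summed CPM, counts scaled to the same library total, of a list of 10 genes went from 488 to 585 at T0 to 13475 to 40458 at T9, and the summed smooth muscle markers went from 320 to 651 to 2358 to 3673. Of these lists, 10 of 10 tenocyte and 6 of 6 smooth muscle genes were called higher at T9 than at T0, where 45.2% of all genes tested were called. The summed mean of epithelial markers went from 346 CPM at T0 to 50.6 at T9 and that of pluripotent markers from 499.5 to 118, while endothelial markers went from 15.0 to 64.7 CPM and adipocyte markers from 0.369 to 40.8. Of those tested, 3 of 4 epithelial genes (2 by DESeq2) and 1 of 4 pluripotent genes (0 by DESeq2) were called lower. Only 2 endothelial genes and 1 adipocyte gene, *Fabp4*, could be tested, and these were called higher. The T9 plates held 0 to 216 CPM of pluripotent markers. Elastin is made by smooth muscle cells as well as fibroblasts, and the part of any of these lists in the results below was not tested.

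*Eln*, the gene of tropoelastin, the soluble precursor of elastin, rose at each step of the course, from 5 UMIs over the T0 plates to 10724 over those of T9. Its locus is chr5:134702593-134747323 on the minus strand (GRCm38, ENSMUSG00000029675). The 3 plates of T0 held 0.429, 0.695 and 0 CPM. At T3 the plates held 39.0, 62.6 and 38.0 CPM, at T6 574, 296 and 752 CPM, and at T9 853, 689.5 and 1803 CPM. All T3 plates lay above all T0 plates and all T6 plates above all T3 plates, whereas the T6 and T9 plates overlapped. The T0 mean was 0.375 ± 0.351 CPM, rising to 46.6 ± 13.9 by T3, 540 ± 230 by T6 and 1115 ± 602 by T9 (SD, n = 3 plates each). In pooled UMIs *Eln* was 120-fold higher at T3 than at T0 (95% exact interval 50.8 to 371, which covers counting error only). Tested across plates with edgeR's quasi-likelihood test and Benjamini-Hochberg adjustment over all genes, *Eln* rose by 6.95 on the log2 scale from T0 to T3 (SE 0.51, adjusted p = 2.95e-07) and by a further 3.53 from T3 to T6 (SE 0.33, adjusted p = 0.000104). The last step, T6 to T9, was smaller, with a log2 fold change of 1.26 (SE 0.29, adjusted p = 0.0479). This last call was lost when only the 6 plates of T6 and T9 were fitted (adjusted p = 0.182) and without any 1 of 5 of those plates (adjusted p = 0.0515 to 0.166), whereas with the sides of the split as a covariate the value was 1.47 (adjusted p = 5.32e-05). Leaving out plate 2 of T0 moved the log2 fold change from T0 to 7.60 at T3 and to 12.4 at T9, from 11.7 with all plates.

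**Figure D1:**
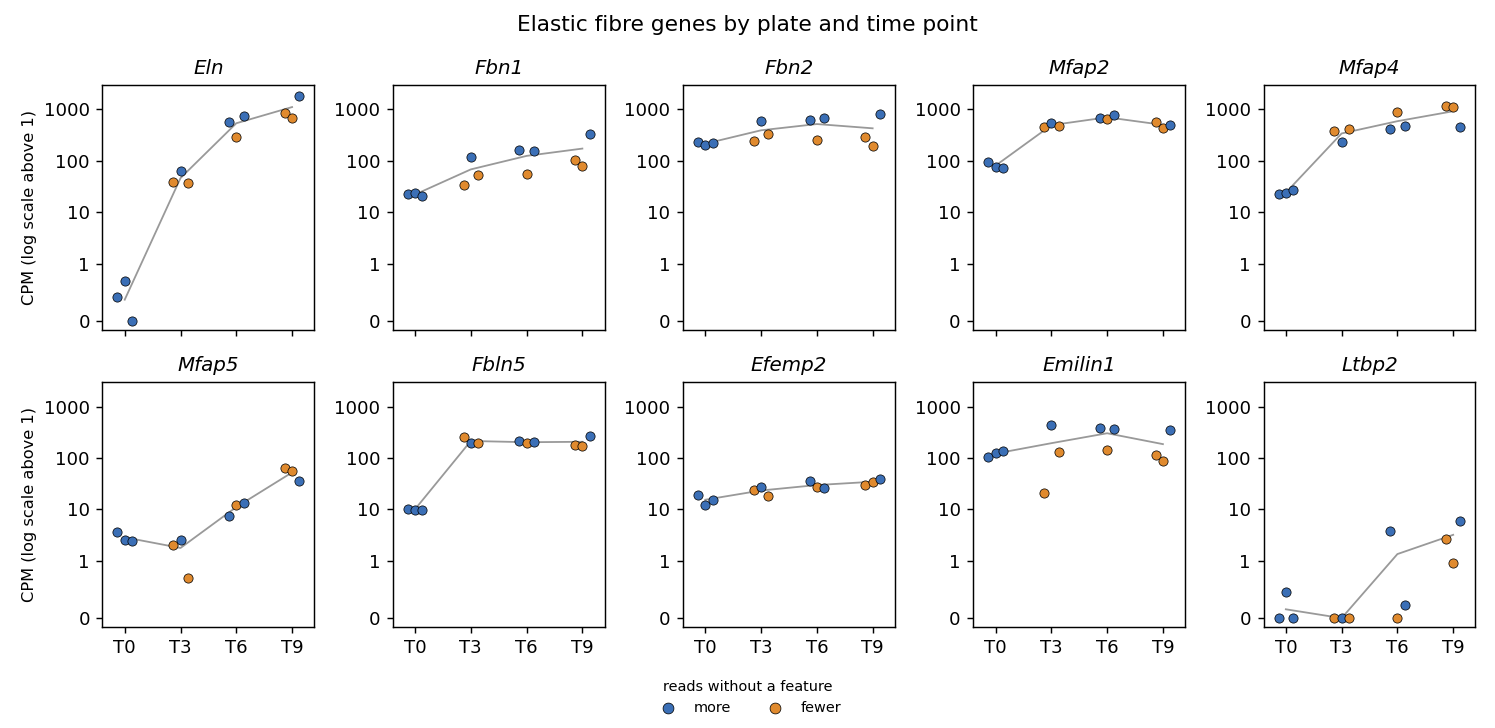
Level of each elastic fibre gene in CPM (symmetric log axis) by time point. Each point is 1 plate and the colour gives the side of the split by reads without a feature; *Eln* climbs from below 1 CPM at T0 to 689.5 to 1803 CPM at T9, while *Emilin1*, *Fbn1* and *Fbn2* separate by colour.

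The share of cells with *Eln* moved with its level. Wells with at least 3000 UMIs were thinned to 3000, so that the cells counted had equal depth, and shallower wells were left out. This kept 1071 of 1147 cells at T0, 1038 of 1151 at T3, 1081 of 1149 at T6 and 1111 of 1147 at T9. After thinning, *Eln* had at least 1 UMI in 0, 0.276 and 0% of cells on the plates of T0 and in 6.83, 14.9 and 8.50% of cells at T3. At T6 the share was 64.8, 40.3 and 71.3%, and at T9 it was 70.4, 63.5 and 87.1%. Without thinning, the mean shares were 0.436, 16.3, 77.6 and 87.1%, at median depths of 10175, 5703, 8794 and 7900 UMIs per cell, so T0, the deepest group, had the lowest share. Among thinned cells of T9 the 10% with most *Eln* held 33.4 to 44.8% of its UMIs on a plate, against 25.6 to 31.3% for *Mfap4*. Thus *Eln* was more uneven between cells at T9 than *Mfap4*, with no overlap between the 3 plates of each. The ranges of *Mfap2* (31.7 to 37.4%), *Fbn2* (31.3 to 48.7%) and *Fbn1* (43.5 to 68.4%) overlapped that of *Eln*. Counting noise, which weighs more on genes with few UMIs, was not removed from this share.

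**Figure D2:**
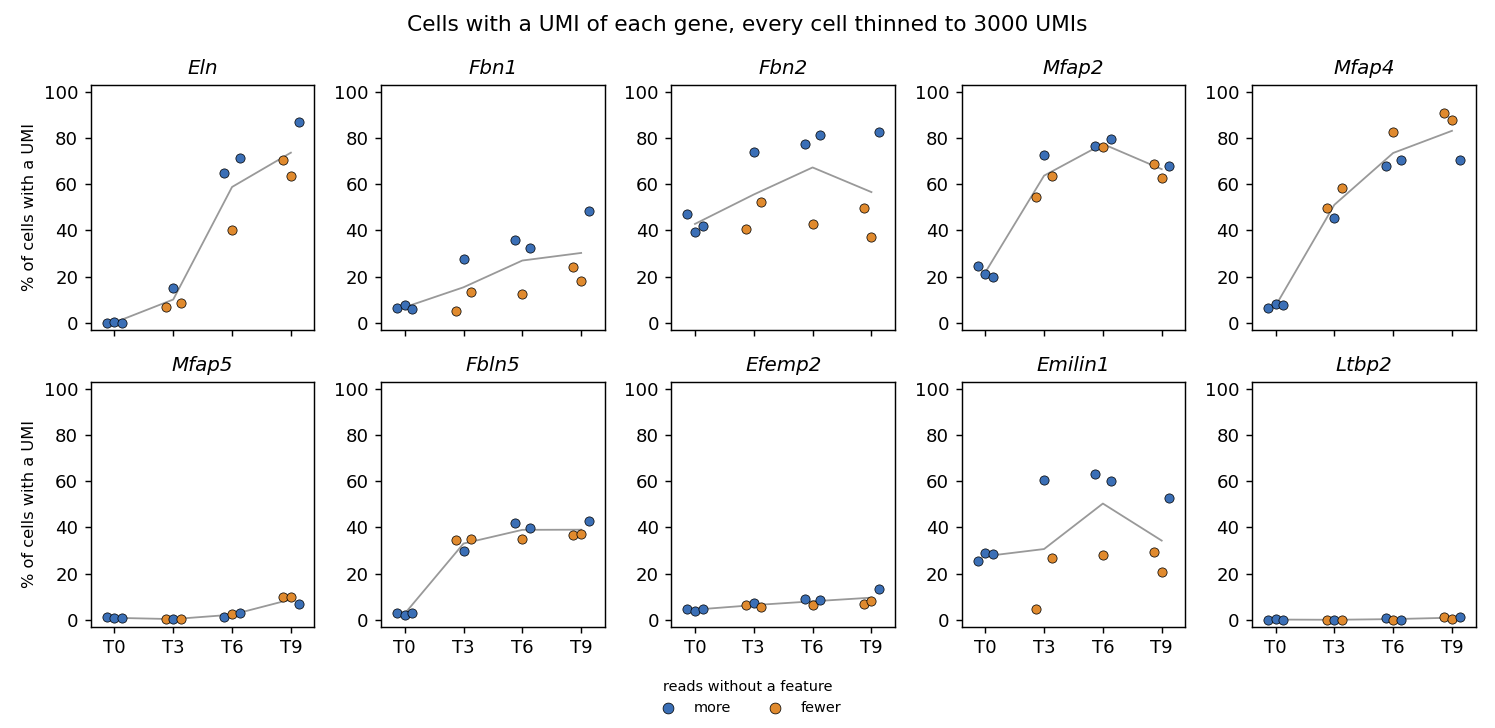
Percentage of cells with at least 1 UMI of each elastic fibre gene by time point, after thinning to 3000 UMIs, with shallower wells left out. Points are plates; *Eln* reached 63.5 to 87.1% of cells at T9, whereas *Ltbp2* stayed at or below 1.10%.

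The microfibril genes did not move as one. *Fbn1* and *Fbn2* encode fibrillins, the large glycoproteins that polymerise into microfibrils, and *Fbn2* is known mainly from embryonic tissue. *Fbn1* (chr2:125300594-125507993, minus strand) held 22.3, 24.1 and 20.4 CPM at T0, 34.9, 117 and 54.0 at T3, 162, 56.0 and 159 at T6, and 105, 79.3 and 337 at T9. Every induced plate lay above every T0 plate, but the plates of T3, T6 and T9 overlapped one another. *Fbn1* rose by 1.79 on the log2 scale from T0 to T3 (SE 0.43, adjusted p = 0.00638) and was 3.33 higher at T9 than at T0 (SE 0.45, adjusted p = 4.02e-05). *Fbn2*, on chromosome 18, was well expressed from the start, at 229, 201 and 219.6 CPM at T0. It held 247, 607 and 329.6 CPM at T3, 635, 258 and 672 at T6, and 289, 198 and 806 at T9. Its T3 plates lay just above those of T0 whereas 1 plate of T9 fell below them all, and the log2 fold changes from T0 were 1.04 at T3 (SE 0.36, adjusted p = 0.0384) and 1.37 at T9 (SE 0.36, adjusted p = 0.00683). The T3 call for *Fbn2* was lost without any 1 of 5 of the 6 plates of T0 and T3 (adjusted p = 0.0710 to 0.132). For both fibrillins the highest plates at each time point were those with more reads without a feature. With the split as a covariate the differences from T0 were larger, at 2.47 for *Fbn1* and 1.64 for *Fbn2* at T3 (adjusted p = 1.13e-08 and 1.32e-06) and at 3.96 and 1.89 at T9 (adjusted p = 5.98e-12 and 8.55e-08). Without plate 3 of T9, the T9 plate on that side, the T9 value of *Fbn1* was 2.71 (adjusted p = 3.61e-05).

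*Mfap2*, *Mfap4* and *Mfap5* encode small glycoproteins that sit on microfibrils, of which the *Mfap4* product also binds tropoelastin. *Mfap2* (chr4:141010418-141015984, plus strand) was the steadiest of them, at 94.1, 77.3 and 72.1 CPM at T0 and 465, 538 and 485 CPM at T3. It held 694, 644 and 777 CPM at T6 and 566, 445 and 495 CPM at T9. Every induced plate was above every T0 plate, the T6 plates were above all those of T3 and T9, and the replicate plates lay close together. The T0 to T3 rise of *Mfap2* was 2.85 on the log2 scale (SE 0.21, adjusted p = 2.68e-07), and the step from T3 to T6 was 0.53 (SE 0.19, adjusted p = 0.155) with all plates and 0.63 (adjusted p = 0.00585) with the split as a covariate.

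*Mfap4* (chr11:61485431-61488900, plus strand) held 22.3, 23.4 and 26.9 CPM at T0 and 381, 233 and 413 CPM at T3. It went on to 412, 898 and 469 CPM at T6 and to 1193, 1116 and 465 CPM at T9. Unlike the fibrillins, *Mfap4* was highest on the plates with fewer reads without a feature. It rose by 4.10 from T0 to T3 (log2, SE 0.54, adjusted p = 6.34e-05) and was 5.83 higher at T9 than at T0 (SE 0.58, adjusted p = 2.57e-06). With the split as a covariate these were 3.04 and 4.67 (adjusted p = 2.27e-10 and 5.96e-13). From T3 to T6 the log2 fold change of *Mfap4* was 0.85 (SE 0.47, adjusted p = 0.360) over all plates, and 1.25 (adjusted p = 2.40e-05) with the split as a covariate.

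*Mfap5* (chr6:122505845-122529290, plus strand) was the late gene of the set. It held 3.65, 2.55 and 2.42 CPM at T0 and 2.08, 2.58 and 0.697 CPM at T3, then 7.42, 12.4 and 13.6 CPM at T6 and 65.2, 56.8 and 35.2 CPM at T9. The T0 and T3 plates overlapped, all T6 plates stood above both, and all T9 plates stood above all T6 plates. The first step was -0.52 on the log2 scale (SE 0.61, adjusted p = 0.547), after which *Mfap5* rose by 2.71 from T3 to T6 (SE 0.53, adjusted p = 0.00979) and by 2.53 from T6 to T9 (SE 0.37, adjusted p = 0.00446). These values rest on 37 UMIs for T0 and 13 for T3, and on 125 for T6 and 523 for T9. The T6 call was lost without plate 3 of T3 (adjusted p = 0.0559) and the T9 call when only the plates of T6 and T9 were fitted (adjusted p = 0.0515). Even at T9, a mean of 8.80 ± 1.66% of thinned cells had an *Mfap5* UMI (SD, n = 3 plates), so most cells showed none at this depth.

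Among the assembly genes, *Fbln5* rose early and then held its level. *Fbln5* encodes a fibulin that tethers tropoelastin to microfibrils and to cell-surface integrins, and it lies at chr12:101746565-101819055 on the minus strand. The T0 plates held 10.3, 9.96 and 9.96 CPM and the T3 plates 253, 191 and 198 CPM. At T6 the plates held 212, 191 and 204 CPM, and at T9 183, 171 and 266 CPM. All induced plates stood far above T0 and the 3 induced time points overlapped throughout. From T0 to T3 *Fbln5* rose by 4.66 on the log2 scale (SE 0.24, adjusted p = 1.49e-08), while the later steps were -0.08 (SE 0.20, adjusted p = 0.869) and 0.24 (SE 0.20, adjusted p = 0.573). The share of thinned cells with an *Fbln5* UMI went from 2.62 ± 0.62% at T0 to 33.0 ± 2.84% at T3 and was 39.0 ± 3.44% at T9 (SD, n = 3 plates).

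*Efemp2*, whose product is another fibulin needed for elastin cross-linking, changed little by comparison. It held 18.7, 12.3 and 15.3 CPM at T0, 23.9, 27.6 and 18.5 at T3, 36.3, 27.4 and 25.7 at T6, and 30.4, 33.7 and 39.5 at T9. A T3 plate lay below the highest T0 plate, whereas all T9 plates lay above T0. Relative to T0 the log2 fold change reached 0.82 by T3 (SE 0.22, adjusted p = 0.0117) and 1.65 by T9 (SE 0.21, adjusted p = 3.13e-05), and the call at T3 was lost without plate 2 of T0 (adjusted p = 0.0606).

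*Emilin1* (chr5:30913402-30921277, plus strand) encodes a glycoprotein found at the interface between elastin and microfibrils, and its result depended on the split. It held 103, 127 and 136 CPM at T0, 21.3, 431 and 129 at T3, 389, 145 and 372 at T6, and 116, 88.6 and 353 at T9. The T3 and T9 plates scattered on both sides of the T0 plates, whereas the T6 plates all stood above them. With all plates the log2 fold change was 0.76 at T3 (SE 0.62, adjusted p = 0.374) and 0.98 at T9 (SE 0.62, adjusted p = 0.215), and without plate 2 of T3 the T3 value changed sign. Plates with more reads without a feature held 353 to 431 CPM after induction, and those with fewer held 21.3 to 145 CPM. With the split as a covariate *Emilin1* was called higher than at T0, by 1.42 at T3 (SE 0.37, adjusted p = 0.00588) and by 1.81 at T9 (SE 0.38, adjusted p = 0.000823). It was also called without a filter on low counts (adjusted p = 0.0170 at T3 and 0.000410 at T9) and at T9 with only the 6 plates of T0 and T9 (log2 1.00, adjusted p = 0.0314). Within the side with more such reads the values were 1.78 and 1.70, each resting on 1 induced plate. No T0 plate lay on the other side, so the same comparison could not be made there.

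*Ltbp2*, which encodes a fibrillin-binding relative of the latent TGF-β binding proteins (chr12:84783212-84876532, minus strand), was barely detected. It had 0, 2 and 0 UMIs on the plates of T0, none at T3, 15, 0 and 1 at T6, and 10, 3 and 18 at T9. *Ltbp2* was thus seen on every plate of T9 and on 3 of the 9 earlier plates, and it was too low to enter the fit of all plates. The pooled T9 to T0 ratio was 20.1 (95% exact interval 5.10 to 173, counting error only), and without a filter on low counts *Ltbp2* was called higher at T9 than at T0 (adjusted p = 0.000359). It passed the filter once the split was a covariate and was called there as well (log2 5.35, SE 1.22, adjusted p = 0.00192).

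**Figure D3:**
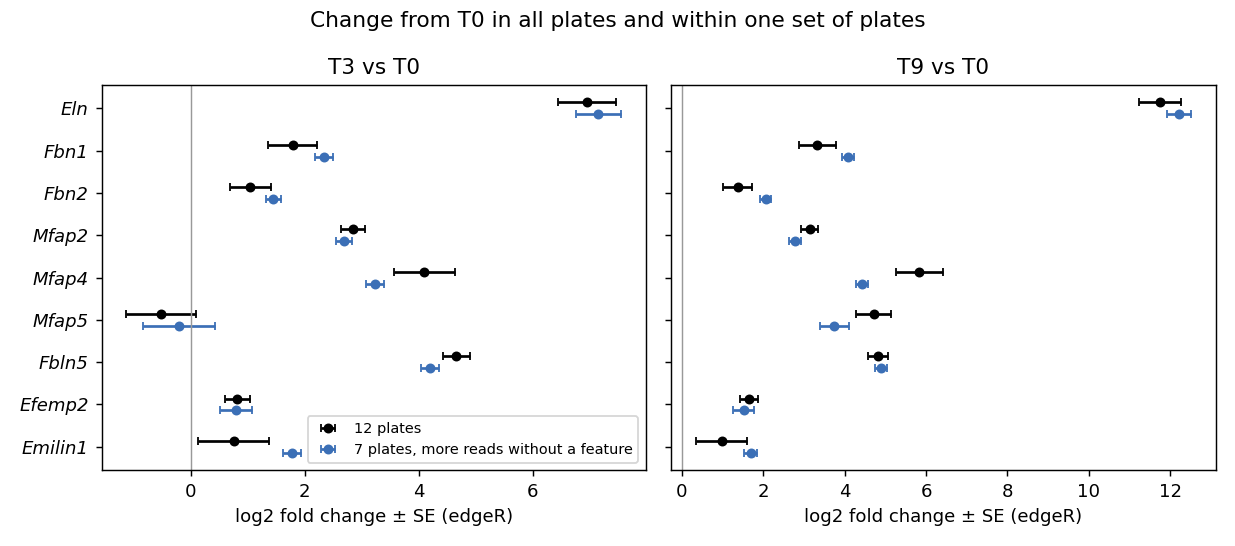
Log2 fold change of the elastic fibre genes from T0 to T3 and from T0 to T9, fitted on all 12 plates and on the 7 plates with more reads without a feature, with bars for 1 standard error. *Eln* had the largest value in both, and *Emilin1*, not called with all plates, was 1.78 and 1.70 within the 7 plates, of which T3 and T9 hold 1 each; *Ltbp2*, too low for the fit on all 12 plates, is left out.

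Counted together, 7 of the 9 members tested were called higher at T3 than at T0 and none lower, with a median log2 fold change of 1.79, where 33.2% of all 13372 genes tested were called and the median of all genes was 0.01. From T0 to T9, 8 of 9 were called higher, with a median of 3.33, against 45.2% of all genes called and a median of -0.02. The call was made for 2 of 9 from T3 to T6, *Eln* and *Mfap5*, where 4.24% of all genes were called, and for the same pair from T6 to T9, where 1.62% were called. These comparisons share plates and are not independent of one another. *Eln*, *Mfap4*, *Mfap2*, *Fbln5*, *Fbn1*, *Fbn2* and *Efemp2* were the 7 called at T3, and *Mfap5* joined them at T9. With the split as a covariate 10 members were tested, of which 8 were called at T3 and 10 at T9 relative to T0, 4 from T3 to T6 and 3 from T6 to T9, all higher, and the third of the last was *Fbn1* (log2 0.98, adjusted p = 0.000779). That fit also called more of all genes, 1464 in place of 567 from T3 to T6 and 787 in place of 217 from T6 to T9. Its share of all genes is not given here for the comparisons with T0, so the higher counts are not read as a result about the members.

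Other genes of the elastic fibre pathway moved largely in the same direction, as counted on a list of 39 genes outside the members, of which 32 were tested. At T3, 21 of these were called higher than at T0 and 2 lower, with a median log2 fold change of 1.45, where 33.2% of all genes were called. All 4 cross-linking enzymes tested were among the higher ones, and so were all 3 latent TGF-β binding proteins and all 3 TGF-β ligands. *Lox*, the lysyl oxidase that cross-links elastin and collagen, went from 2.91 ± 1.10 CPM at T0 to 541 ± 146 CPM at T3 and 1416 ± 18.3 CPM at T9 (SD, n = 3 plates each), a log2 fold change of 7.78 at T3 (SE 0.42, adjusted p = 2.02e-08). *Adamtsl2*, a secreted protein that binds fibrillin, had 0 UMIs at T0 and 162 at T3, which is at least 91.3-fold higher against a floor of 3 UMIs over the T0 plates. *Emilin3*, a relative of *Emilin1*, had 3 UMIs at T0 and 151 at T3, a ratio of 85.1 (95% exact interval 28.6 to 417, counting error only). *Itgav*, an integrin subunit that binds fibrillin and latent TGF-β, went the other way, from 157 ± 9.52 to 58.9 ± 13.9 CPM, and fell by 1.18 on the log2 scale (SE 0.19, adjusted p = 0.000295).

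From T3 to T6, 4 of the 32 were called higher and 1 lower, where 4.24% of all genes were called. With the split as a covariate these counts were 8 and 3, in a fit that called 1464 of all genes in place of 567. The integrin subunit *Itgb3* went from 2.32 ± 3.43 to 23.3 ± 8.15 CPM, the gelatinase *Mmp9* from 28.6 ± 20.3 to 110 ± 21.7 CPM, and the cross-linking enzyme *Loxl2* from 156 ± 76.1 to 420 ± 177 CPM, with adjusted p of 0.0105, 0.00206 and 0.00793 in edgeR. The fibulin relative *Efemp1* fell by 1.67 on the log2 scale, from 68.0 ± 5.78 to 21.6 ± 7.54 CPM (SD, n = 3 plates each; adjusted p = 0.00596). From T6 to T9 the edgeR fit called 0 of the 32, where 1.62% of all genes were called. At an unadjusted p under 0.05 there were 10, and the share of all genes at that threshold is not given here. DESeq2 called 2, where it called 579 of all genes in place of 217. With the split as a covariate 4 were higher and 1 lower, where 787 of all genes were called. Over the whole course 25 of 32 were higher at T9 than at T0 and none lower, including all 5 elastin-degrading enzymes tested, where 45.2% of all genes were called. Beside *Lox*, the largest of these at a mean of 20 CPM or more were *Mmp9*, at 66.2 ± 13.6 against 1.53 ± 0.91 CPM, and the fibulin *Fbln2*, at 119 ± 54.6 against 3.98 ± 1.79 CPM (log2 5.85 and 5.31, adjusted p = 6.98e-08 and 6.61e-08). Thus genes that build elastic fibres and genes that can degrade elastin were both higher at T9.

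The genes whose level over the 12 plates followed *Eln* most closely were *Postn*, *Col5a2* and *Cd55*, with Pearson's r of 0.993, 0.993 and 0.992 on log2(CPM + 1), among 6927 genes at a mean of 20 CPM or more. For *Fbn1* they were *Ppp1r15a*, *Fkbp9* and *Col5a1*, with r of 0.992, 0.979 and 0.972. These likenesses are descriptions over plates that share time points, sides of the split and library depth. *Postn* and *Col5a2* encode matrix proteins, periostin and a chain of type V collagen, and *Col5a1* encodes a partner chain of the same collagen.

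Within T6 and T9, cells that carried a UMI of *Tnmd*, the late tenocyte marker tenomodulin, were compared with the other cells of the same plate, to ask whether the elastic fibre genes were highest in the more mature tenocytes. They were not, as far as *Eln* was concerned. *Eln* in cells with and without *Tnmd* held 469 and 598 CPM on plate 1 of T6, 147 and 324 on plate 2, and 592 and 770 on plate 3. On the plates of T9 it held 724 and 887, 269 and 751, and 1146 and 1888 CPM. *Eln* was therefore lower in the *Tnmd* cells on 6 of 6 plates. With plate as a block the log2 difference was -0.68 (SE 0.11, adjusted p = 0.000249), and after thinning it was -0.85 (SE 0.12, adjusted p = 2.01e-10). The thinned classes were drawn again from the thinned *Tnmd* UMIs, with 12 to 48 *Tnmd* cells per plate, so the cells compared differ. Without thinning, the *Tnmd* cells, 34 to 74 per plate, had the higher median UMI count on all 6 plates. In them 9 of 10 tenocyte markers were called higher, which includes *Tnmd* itself, used to choose the cells, where 2.59% of all genes tested were called. Of 6 smooth muscle markers, 0 were called by edgeR and 0 by DESeq2, with 2 at an unadjusted p under 0.05.

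Of the other 9 members, 0 were called between these cells by edgeR and 0 by DESeq2, where edgeR called 2.59% of all 11847 genes tested. At an unadjusted p under 0.05 there were 3 in edgeR, and the share of all genes at that threshold is not given here. The difference for *Eln* between T9 and T6 was not called either (log2 -0.18, SE 0.21, adjusted p = 0.998). *Fbln5* had a log2 difference of -0.33 (SE 0.10, adjusted p = 0.0839), *Mfap2* of -0.23 (SE 0.10, adjusted p = 0.366) and *Emilin1* of 0.24 (SE 0.10, adjusted p = 0.309). *Fbn2* and *Efemp2* were close to equal, at 0.01 (SE 0.07) and 0.00 (SE 0.28), the latter with a far wider error. Among the pathway genes *Fbln1* was lower by a log2 difference of -0.75 (SE 0.09, adjusted p = 6.47e-06), and *Loxl2* and *Tgfb2* were higher by 0.37 and 0.57 (adjusted p = 0.00649 and 0.00800). *Fbln1* encodes a fibulin that is itself found within elastic fibres.

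**Figure D4:**
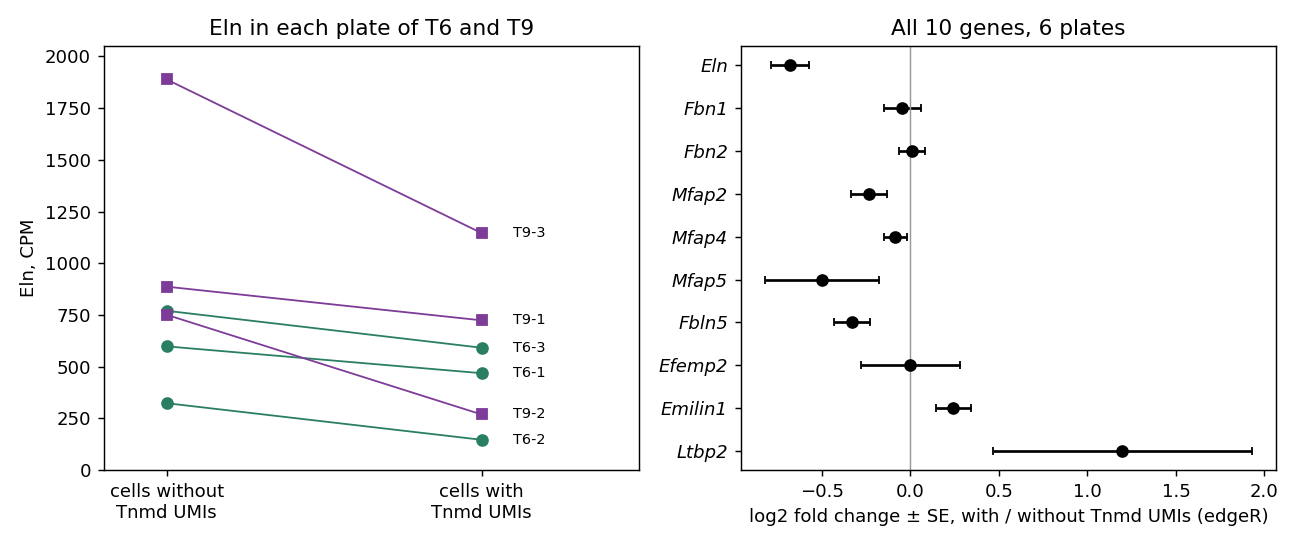
*Eln* level in CPM in cells with and without a *Tnmd* UMI on each plate of T6 and T9, and the log2 difference between these cells for all 10 elastic fibre genes with bars for 1 standard error. *Eln* was lower in the *Tnmd* cells on all 6 plates, with a log2 difference of -0.68.

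At T3, when *Scx* was found in 81.1 ± 4.81% of cells (SD, n = 3 plates), cells with a *Scx* UMI were compared with the rest in the same way. *Eln* held 47.1 and 9.68 CPM in cells with and without *Scx* on plate 1, 67.7 and 35.2 on plate 2, and 40.4 and 24.0 on plate 3. It was higher in the *Scx* cells on 3 of 3 plates, but the cells without *Scx* had only 4, 15 and 10 *Eln* UMIs. The log2 difference of 1.20 (SE 0.36) was not called, with an adjusted p of 0.200 in edgeR, and was 0.55 (SE 0.33, adjusted p = 0.665) after thinning. The thinned classes were again drawn from the thinned *Scx* UMIs. This put 107, 103 and 90 cells without *Scx* on the plates, against 94, 61 and 63 before thinning, so the cells compared differ. Of the 8 members tested, 0 were called by edgeR and 0 by DESeq2, where edgeR called 0.454% of all 9702 genes. At an unadjusted p under 0.05 in edgeR there were 2, *Eln* and *Emilin1* (log2 0.54, SE 0.19, adjusted p = 0.356 for *Emilin1*). The share of all genes at that threshold is not given here.

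In the Achilles tendon the labels were checked first on *Scx*, which had 103 and 81.3 CPM in the Scx_Wt samples and 23.1 and 25.1 CPM in the Scx_KO samples (log2 -1.88, adjusted p = 0.000429). Reads at the locus thus remained in the knockout. Cell type markers differed widely between the genotypes, where 3.84% of all genes tested were called. Tenocyte markers summed to 166388 and 153364 CPM in Scx_Wt and 72757 and 83762 CPM in Scx_KO, with 6 of 10 called lower, and chondrocyte markers to 2361 and 2555 against 129 and 108 CPM, with 4 of 6 called lower. Skeletal muscle markers summed to 37167 and 68164 CPM in Scx_Wt and 90348 and 94094 CPM in Scx_KO, with 0 of 8 called by edgeR, 5 at an unadjusted p under 0.05 and 3 called by DESeq2. Smooth muscle markers, a possible source of elastin, summed to 3015 and 2536 against 3651 and 3385 CPM, although 4 of the 6 genes had lower values in Scx_KO, *Cnn1*, *Myh11*, *Tagln* and *Acta2* (log2 -2.89, -1.81, -1.51 and -1.10), of which *Acta2* was called (adjusted p = 0.0447), and the others were *Des* and *Smtn* (log2 0.75 and 0.15). Adipocyte markers summed to 3125 and 1231 against 789 and 375 CPM, with 2 of 5 called lower by edgeR. Endothelial markers summed to 934 and 938 against 694 and 581 CPM, with 2 of 8 called lower by edgeR. DESeq2 called 9 of the tenocyte, 2 of the smooth muscle, 0 of the adipocyte and 3 of the endothelial genes. Epithelial markers summed to 1.61 and 1.31 CPM in Scx_Wt and 20.6 and 12.1 CPM in Scx_KO, where *Krt8* and *Krt18* were called higher (log2 5.15 and 3.57, adjusted p = 0.0121 and 0.0154). The part of these shifts in the values below was not tested, and in whole tissue more RNA per cell and more cells of a type cannot be told apart.

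*Eln* was the member that differed most. The Scx_Wt samples had 1509.8 and 746 CPM and the Scx_KO samples 4635 and 6133 CPM. Both knockouts stood well above both controls, which themselves differed by more than the knockouts did in ratio. The log2 fold change was 2.32 (SE 0.34, adjusted p = 0.00553), a 5.00-fold higher level. *Mfap5* had 173 and 152 CPM in Scx_Wt and 406 and 424 CPM in Scx_KO, with both pairs tight and far apart (log2 1.40, SE 0.16, adjusted p = 0.00174). *Ltbp2* was low in this tissue, at 9.65 and 3.43 CPM in Scx_Wt and 24.1 and 27.6 CPM in Scx_KO (log2 2.05, SE 0.38, adjusted p = 0.0197), and the value was 2.91 without Scx_Wt replicate 1, with the call kept.

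These were the 3 of 10 members called in the knockout, all higher, where 3.84% of all 14602 genes tested were called. All 10 members had a positive log2 fold change, with a median of 0.39 against 0.00 for all genes. *Emilin1* came next, with 125 and 112 CPM in Scx_Wt and 166 and 171 CPM in Scx_KO. Its groups did not overlap, and its log2 fold change of 0.56 (SE 0.15) had an adjusted p of 0.0726 in edgeR but was called by DESeq2 (adjusted p = 0.0337). *Fbn1* had 738 and 601 CPM in Scx_Wt and 768 and 958 CPM in Scx_KO (log2 0.42, SE 0.21, adjusted p = 0.347), and *Fbn2* had 57.4 and 47.0 against 53.4 and 66.9 CPM (log2 0.26, SE 0.18, adjusted p = 0.516). The *Fbn1* groups were separated by less than the samples of a group differed, and the *Fbn2* groups overlapped.

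*Mfap2* had 176 and 143 CPM in Scx_Wt and 201 and 172 CPM in Scx_KO, and *Mfap4* had 950.0 and 1059.8 against 1239 and 1105 CPM (log2 0.27 and 0.26, adjusted p = 0.414 and 0.567). *Fbln5* had 103 and 74.3 against 108 and 112 CPM, and *Efemp2* had 61.9 and 59.5 against 69.4 and 58.6 CPM (log2 0.37 and 0.12, adjusted p = 0.291 and 0.755). Of these 4, *Mfap2* and *Efemp2* overlapped between the genotypes, and *Mfap4* and *Fbln5* did not overlap but were separated by gaps smaller than the difference between the Scx_Wt samples.

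**Figure D5:**
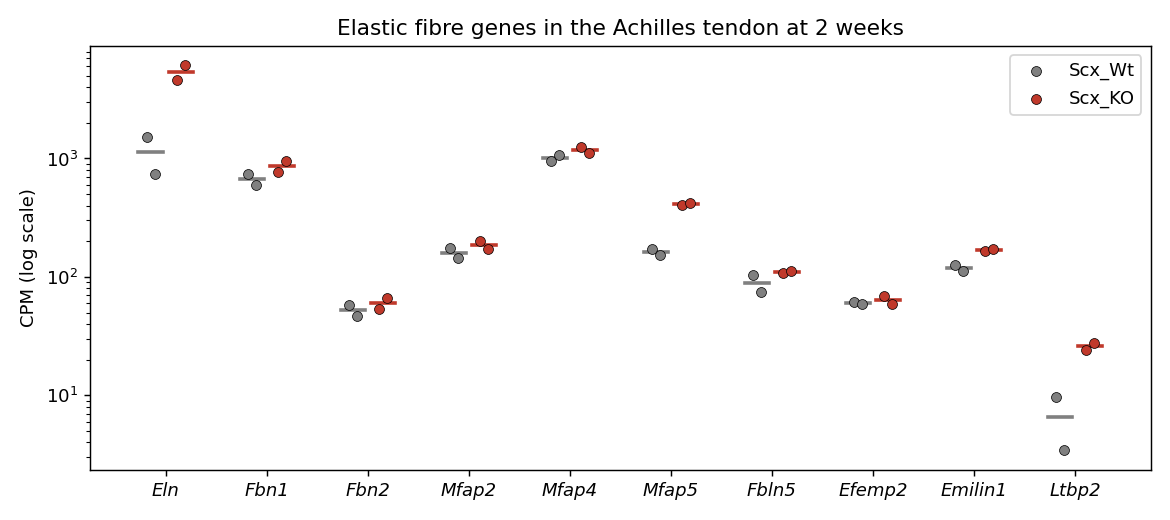
Level of each elastic fibre gene in CPM (log axis) in the 2 Scx_Wt and 2 Scx_KO Achilles tendon samples; each point is 1 sample. *Eln*, *Mfap5* and *Ltbp2* were higher in both Scx_KO samples, by 2.32, 1.40 and 2.05 on the log2 scale.

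With counts divided by gene length, so that members could be ordered, the elastin-binding gene *Mfap4* led in the wild-type tendon, at 1726 ± 61.0 length-scaled CPM (SD, n = 2). *Eln* at 465 ± 240.0 and *Mfap2* at 437 ± 81.4 followed and did not differ beyond their spread, and *Fbn1* at 183 ± 34.0 and *Mfap5* at 149.8 ± 20.3 were likewise close. *Fbn2* at 13.1 ± 2.39 and *Ltbp2* at 2.68 ± 1.89 came last. In Scx_KO *Eln* reached 2055 ± 489, alongside *Mfap4* at 1873 ± 72.7, and it ranked first in 1 knockout sample and second in the other. *Mfap5*, at 356 ± 25.7, moved above *Fbn1*, at 219.8 ± 43.2, in both. The lengths come from the GENCODE vM21 exon union, so a tissue that uses shorter isoforms would be scaled too low.

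Of the 37 other pathway genes tested in the tendon, 4 were called higher and 3 lower in Scx_KO, with a median log2 fold change of -0.01, where 3.84% of all genes tested were called. Of the lysyl oxidase relatives 1 was called higher and 2 lower. *Loxl1*, whose product is known to cross-link elastin, had 126 ± 26.4 CPM in Scx_Wt and 363 ± 36.0 CPM in Scx_KO (SD, n = 2 each; log2 1.59, SE 0.18, adjusted p = 0.00173). *Loxl2* had 630.1 ± 4.27 and 294 ± 31.1 CPM (log2 -1.05, SE 0.18, adjusted p = 0.0144). *Loxl4*, named after its values were seen, had 20.6 and 14.6 CPM in Scx_Wt and 1.86 and 3.14 CPM in Scx_KO (log2 -2.76, adjusted p = 0.00355). *Adamts17*, a fibrillin-binding protease family member, and *Fbln7*, a fibulin, were higher by 1.58 and 1.49 on the log2 scale (adjusted p = 0.00271 and 0.00403).

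For 6 members an exon of another gene lies on the opposite strand: *Gm30003* shares 267 exonic bases with *Eln*, *Gm9913* shares 2442 with *Fbn1*, *Gm26507* shares 129 with *Fbn2*, *Mapk7* shares 89 with *Mfap4*, *Mus81* shares 173 with *Efemp2* and *D030025P21Rik* shares 764 with *Ltbp2*. Whether strand was used in counting is not given in the sources used here, so reads there may belong to either gene.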

How the data were processed

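Single cells from 12 plates of 384 wells and 4 Achilles tendon samples were analysed from the deposited count tables. Per the labels, the authors had aligned CEL-Seq2 reads to GRCm38 with HISAT2 2.2.1, assigned them with featureCounts and collapsed UMIs with UMI-tools 1.0.1, giving UMI counts per gene and well, and had aligned bulk poly(A) reads with HISAT2 2.0.4 and counted them with featureCounts 1.5.0. The annotation release and the strand setting are not given in the sources used here. A CEL-Seq2 read marks the 3' end of a transcript, so UMI counts do not grow with gene length, whereas bulk read counts do.

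Wells with at least 200 detected genes were kept (4594 of 4608), and their UMIs were summed per plate, which served as the replicate. The 3 table entries without an Ensembl identifier held 0.0642% of UMIs and were left out. Both tables were tested with edgeR 4.0.16 in R 4.3.3 (filterByExpr, TMM, quasi-likelihood F-test), with Benjamini-Hochberg adjustment over all genes tested and a threshold of 0.05. The 4 time points were fitted together, the 2 genotypes separately, and cells with or without a *Tnmd* or *Scx* UMI with plate as a block. CPM are counts of UMIs or reads scaled to the same total for each plate or sample. Intervals are 95% exact intervals of a ratio of pooled counts, and a floor of 3 counts was used against 0. Sequencing depth was 1921125 to 4657093 UMIs per plate and 11188270 to 12398560 reads per tendon sample. Tested on simulated data with 200 genes changed 3-fold, the fit recovered 64.5% of them for T9 against T0 and 70% for the 2 genotypes. It also made 12 and 14 false calls among the genes left unchanged. The simulated counts held no split between plates, so they do not show the recovery or the false calls to be had in the real plates.

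The members, the pathway and marker lists and the comparisons were chosen with earlier results of these data known. All 10 members are named with their values, and of the pathway list up to 3 called genes per direction, those with the largest change at a mean of 20 CPM or more. Alternatives were DESeq2 1.42.0, its size factors in edgeR, no filter on low counts, wells with 1000 or more genes, thinning to 3000 UMIs, the replicate number or the side of the split as an added term, fits of only the compared plates, and each replicate left out. Fits within a side of this split were chosen after seeing the data. The split of plates, by reads without a feature, follows the study's library statistics. Gene positions and lengths are from GENCODE vM21, which covers 47310 of the 47729 bulk identifiers, and promoters from RefSeq.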

Additional observations from a re-analysis of the deposited data

How the results depend on the processing

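No called elastic fibre value changed sign under any alternative run: over the alternatives of the called values, 307 kept their call and 16 lost it, all of the latter named with their results above except where given here. The values that changed sign were of uncalled genes, and the cause was not tested. Thinning gave a log2 fold change of 0.0545 for *Fbln5* from T3 to T6, and of -0.0834 for *Fbn1* and -0.0121 for *Fbln5* between *Scx* cells and others at T3. The split as a covariate gave 0.0187 for *Fbln5* from T3 to T6 and 0.17 for *Fbn2* from T6 to T9. Within the plates with more reads without a feature, *Fbln5* was 0.24 and *Emilin1* -0.0577 from T3 to T6 and *Fbn2* 0.39 from T6 to T9. Within the other plates *Fbn2* was -0.00797 and 0.0498 in these steps. Without a filter on low counts *Fbn2* and *Efemp2* were -0.0667 and -0.0726 between *Tnmd* cells and others. Leaving out each replicate in turn gave a range of -0.36 to 1.25 for *Emilin1* at T3 against T0, with the only value below 0 without plate 2 of T3. It gave -0.29 to 0.16 for *Fbln5* from T3 to T6 and -0.61 to 0.21 for *Fbn2* from T6 to T9. Between *Tnmd* cells and others it gave -0.0658 to 0.0110 for *Fbn1*, -0.0159 to 0.0446 for *Fbn2* and -0.18 to 0.17 for *Efemp2*. Between *Scx* cells and others it gave -0.00649 to 0.56 for *Fbn1*, -0.0384 to 0.68 for *Fbln5* and -0.54 to 0.21 for *Efemp2*.

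The number of genes called from T3 to T6, 567, became 899 with DESeq2, 1010 without a filter, 1464 with the split as a covariate and 264 with only the 6 plates compared, and the 2 members called became 5 without a filter and 4 with the split. From T6 to T9 the 217 genes became 579, 684, 787 and 45 in the same order and 330 within the plates with more reads without a feature, and the 2 members became 1 with wells of 1000 or more genes, 0 with only the 6 plates compared, and 3 with the split as a covariate or within those plates (*Fbn1*) and without a filter (*Mfap4*, adjusted p = 0.00923). Without a filter, 1415 genes in place of 560 were called between the genotypes, 3 members in place of 1 between *Tnmd* cells and others, and 116 genes in place of 44 between *Scx* cells and others, which DESeq2 put at 24.

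The replicate numbers did not pair the plates: deviations of same-numbered plates correlated at -0.56 to 0.50 over 18 pairs, and 5 of 12 plates correlated best with their own number. The tendon samples with the same number correlated at 0.08. With a replicate block the genes called were 4034 at T3 against T0, 399 at T6 against T3, 109 at T9 against T6, 5732 at T9 against T0 and 1108 between the genotypes, and the members called from T6 to T9 became 1, since *Eln* missed the threshold (adjusted p = 0.0783).

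Without 1 replicate each, the genes called ranged from 3001 to 4405 at T3 against T0, 291 to 890 at T6 against T3, 35 to 852 at T9 against T6, 4774 to 6491 at T9 against T0, 380 to 666 between the genotypes, 178 to 287 between *Tnmd* cells and others and 2 to 42 between *Scx* cells and others. The members called ranged from 5 to 7, 1 to 2, 1 to 2, 8 to 9, 3 to 3, 1 to 2 and 0 to 0 in the same order. Depth limited *Ltbp2*, *Mfap5* and *Eln* at T0, and with 2 tendon samples per genotype the spread rests on the model across genes.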
